A study of Mus musculus with 22 samples.

Results

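Chemokines and their receptors were followed in mRNA-seq libraries of 22 livers, 1 per mouse. The members were the rows of the count table whose gene symbol is that of a CC, CXC, CX3C or XC chemokine or of a signalling or atypical chemokine receptor. They numbered 68 of the 55573 rows, with 63 different symbols, and 36 had a mean count of at least 10 over the 22 libraries and were tested among 14062 tested genes. All mice were C57BL/6 and 3 months old and carried Albumin-Cre, which is active in hepatocytes. FLCN KO mice (liver-Flcn-/-) were Flcn f/f with Albumin-Cre, while Cre mice were Flcn WT/WT with Albumin-Cre+/-. Flcn was not measured by cell type. Each genotype was fed Chow or a methionine and choline deficient (MCD) diet from 6 weeks of age for 6 weeks, which gave 6 Cre Chow, 5 Cre MCD, 5 FLCN KO Chow and 6 FLCN KO MCD libraries. Mice on the MCD diet develop liver fibrosis and inflammation. The comparison of genotypes asks whether hepatic loss of Flcn changes the response to this diet. Levels are CPM, read counts scaled to the library size with edgeR's TMM factors. A member was called where the adjusted p from edgeR, over all 14062 genes, was under 0.05.

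The depth ranged from 13751347 to 21144388 reads on genes per library, and 3 counts, the smallest signal taken as present, stood for 0.123 to 0.241 CPM. Flcn itself had 31.6 ± 4.90 CPM in Cre Chow (SD, n = 6) and 20.4 ± 2.78 CPM in FLCN KO Chow livers (SD, n = 5), a log2 fold change of -0.63 (SE 0.173, edgeR adjusted p = 0.025). On MCD it had 29.1 ± 8.41 CPM in Cre (SD, n = 5) and 26.0 ± 5.12 CPM in FLCN KO livers (SD, n = 6), a log2 fold change of -0.16 (SE 0.170, edgeR adjusted p = 0.57). On Chow, Flcn lay between 26.1 and 40.1 CPM in Cre livers and between 16.7 and 24.2 CPM in FLCN KO livers, without overlap, while on MCD the ranges of 18.2 to 39.8 and 17.6 to 32.6 CPM overlapped. These values count the whole gene and not the deleted exon alone, and on MCD they do not separate the labels.

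Some libraries stood apart. Xist and Y-linked genes marked 12 livers as female and 10 as male, each group holding both sexes. The study marks 5 Chow libraries for few uniquely aligned reads, and these were the 5 male Chow livers, so that alignment and sex cannot be told apart on Chow. Y-linked reads above 5% of the male median were present in 5 female libraries, Cre MCD 1 (15.6%), FLCN KO Chow 2 (15.1%), FLCN KO MCD 3 (6.81%), FLCN KO Chow 4 (6.64%) and Cre Chow 2 (6.15%). Whether these 5 libraries hold RNA or reads of another library was not tested, so their values per library may not be those of 1 liver alone. Cre MCD 3 held skeletal muscle RNA, with 3164 CPM summed over 10 muscle genes against 149.9 CPM in the next library, Cre MCD 4. Counts of called members are given with and without these libraries.

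Chemokines are small secreted proteins that bind to matrix and guide leukocytes along gradients, and they act through G protein coupled receptors on the cells they recruit. In injured liver, CCL2 acting on CCR2 draws monocytes out of the blood, the CXCR2 ligands draw neutrophils, the CXCR3 ligands draw activated T cells, and CX3CL1 acts on CX3CR1 of monocytes and resident macrophages. Atypical receptors bind chemokines without G protein signalling and clear or present them.

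Promoters of 46 member symbols were present in the RefSeq table on GRCm38.p6, each as 250 bases before and 50 bases from the start site. Those of the interferon-inducible ligand Cxcl10 and of the CXCR2 ligands Cxcl1 and Cxcl2 are shown because these 3 ligands rose with MCD in Cre mice and were the tested members in the table with an NF-kB-like match. Capitals mark matches, on either strand, to GGGA followed after any 2 bases by TTCC (NF-kB-like), to GAAA followed after any 2 bases by GAAA (ISRE-like) and to TGANTCA (AP-1-like). The windows lie at chr5:92348840-92349139 on the minus strand for Cxcl10, at chr5:90890995-90891294 on the plus strand for Cxcl1 and at chr5:90903649-90903948 on the plus strand for Cxcl2, each printed 5′ to 3′.
Cxcl10: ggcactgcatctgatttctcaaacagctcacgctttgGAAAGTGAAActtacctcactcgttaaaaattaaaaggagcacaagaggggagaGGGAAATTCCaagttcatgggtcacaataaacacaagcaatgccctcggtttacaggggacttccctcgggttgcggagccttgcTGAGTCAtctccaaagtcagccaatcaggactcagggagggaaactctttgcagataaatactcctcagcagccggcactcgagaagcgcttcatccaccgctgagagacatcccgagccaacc
Cxcl1: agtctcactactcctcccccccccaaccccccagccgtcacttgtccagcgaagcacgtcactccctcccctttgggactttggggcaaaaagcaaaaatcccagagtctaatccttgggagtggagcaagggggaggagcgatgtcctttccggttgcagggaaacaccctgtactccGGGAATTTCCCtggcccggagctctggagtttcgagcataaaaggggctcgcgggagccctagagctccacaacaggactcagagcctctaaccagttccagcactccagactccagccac
Cxcl2: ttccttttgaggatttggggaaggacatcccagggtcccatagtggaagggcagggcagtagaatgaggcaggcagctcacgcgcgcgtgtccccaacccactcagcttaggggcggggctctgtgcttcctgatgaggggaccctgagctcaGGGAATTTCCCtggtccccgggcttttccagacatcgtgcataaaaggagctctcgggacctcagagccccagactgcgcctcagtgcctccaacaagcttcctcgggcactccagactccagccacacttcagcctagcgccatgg
With the start base as 0, the NF-kB-like letters begin at -159 in Cxcl10, at -71 in Cxcl1 and at -97 in Cxcl2, where the last 2 matches read the same bases on both strands with an offset of 1 base. Cxcl10 also held the ISRE-like letters at -213 and the AP-1-like letters at -74. Of 32851 promoters of this length, 1.47% held the NF-kB-like, 3.44% the ISRE-like and 7.81% the AP-1-like letters. Among the other tested members with a promoter in the table, Cxcl14 held the ISRE-like letters at -172, and Ccl9, Cxcl9 and Ccl27a held the AP-1-like letters at -53, 31 and -77. A match describes these letters only and is no evidence of binding.

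The genes with a called interaction lie, on GRCm38, at chr11:82035571-82037453 (Ccl2, plus strand), chr11:83525778-83530518 (Ccl5, minus), chr11:83587882-83593087 (Ccl6, minus), chr8:94745590-94751699 (Ccl22, plus), chr5:92346638-92348889 (Cxcl10, minus), chr13:56288643-56296551 (Cxcl14, minus), chr11:70453983-70459984 (Cxcl16, minus), chr9:124101950-124113557 (Ccr2, plus), chr9:119901616-120069879 (Cx3cr1, minus) and chr9:111054486-111057519 (Ccrl2, minus). Counts were taken over the whole gene, so exons are not told apart.

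Per length of the gene's exons, Cxcl12 had the highest mean in each of the 4 groups (28.2 RPKM over all libraries), and Ccl9 and Ccl6 had 23.1 and 9.12 RPKM over all libraries. The order of Ccl9 and Ccl6 differed by diet, since Ccl6 had the higher mean on MCD (17.1 against 16.3 RPKM in Cre and 9.15 against 8.75 RPKM in FLCN KO livers) and Ccl9 on Chow (33.4 against 5.39 and 34.7 against 5.53 RPKM). Over all libraries Cxcl1 (5.41 RPKM), Cxcl9 (5.19 RPKM), Cxcl16 (3.72 RPKM), Cxcl10 (3.24 RPKM) and Ccl2 (2.59 RPKM) were lower, in an order that differed between groups. Cxcl9, for example, had a mean of 7.90 RPKM in FLCN KO Chow livers, above Ccl6, and of 2.28 RPKM in FLCN KO MCD livers, the lowest of these 8 genes. The 32 rows below the filter were Ccl1, Ccl4, Ccl7, Ccl8, Ccl11, Ccl12, Ccl17, Ccl20, Ccl26, Ccl27b, Ccl28, Ccr3, Ccr4, Ccr6, Ccr8, Ccr10, Cxcl3, Cxcl15, Cxcl17, Cxcr1, Cxcr5, Xcl1 and the copies of Ccl19, Ccl21a, Ccl21b, Ccl21c and Ccl27. Near-identical copies share reads, so the levels of these copies and of Ccl27a are uncertain. Whether counting used the strand is not given in the sources used here. Exons overlapped those of neighbouring genes over 1932 bases in Ccr9, 1582 in Cxcl11, 552 in Cxcl16, 479 in Ackr4, 361 in Ackr1, 204 in Ccl25, 133 in Cxcl10, 78 in Cx3cr1 and 8 in Ccl27a, so their reads may include those of a neighbour. The neighbours lie on the opposite strand, except that Ackr1 overlaps a gene on its own strand and Ccr9 and Cx3cr1 have neighbours on both. These are bulk livers, in which more cells of a type and more RNA per cell cannot be told apart.

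The MCD diet raised most of the tested members in Cre mice and fewer in FLCN KO mice. In Cre mice 28 of 36 were called, 20 higher and 8 lower, where 57.5% of all tested genes were called (29.3% higher and 28.2% lower). FLCN KO mice had 17 called members, 8 higher and 9 lower, where 45% of all genes were called (22.5% higher and 22.5% lower). The median log2 fold change of the 36 members was 1.27 in Cre and -0.29 in FLCN KO mice, beside 0.01 and 0.00 over all tested genes. The sign of the FLCN KO median was not stable, at -0.49 in female livers alone, 0.53 in male livers alone, 0.07 without the 5 female libraries with Y-linked reads and -0.0030 without FLCN KO Chow 4. The 8 members called higher in FLCN KO mice (Ccl2, Ccl3, Ccl6, Ccl22, Ccr1, Cxcl2, Cxcr2 and Cxcr4) were also called higher in Cre mice. Groups did not overlap for 18 members between diets in Cre mice (32.5% of all genes) and for 9 in FLCN KO mice (29.2%). Without the 5 female libraries with Y-linked reads, 23 and 14 members were called, where 50.1% and 30.2% of all genes were. Without the 5 Chow libraries with few uniquely aligned reads, 29 and 14 of 37 tested members were called (51% and 43.3% of all genes). Male livers alone gave 18 higher and 2 lower in Cre mice (33.3% of all genes called). In FLCN KO mice they gave 4 higher and 6 lower (20.7%). Female livers alone gave 18 higher and 9 lower in Cre mice (52.4%) and 2 higher and 12 lower in FLCN KO mice (40.8%). Leaving out 1 library at a time gave 24 to 29 and 14 to 18 called members.

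**Figure D1:**
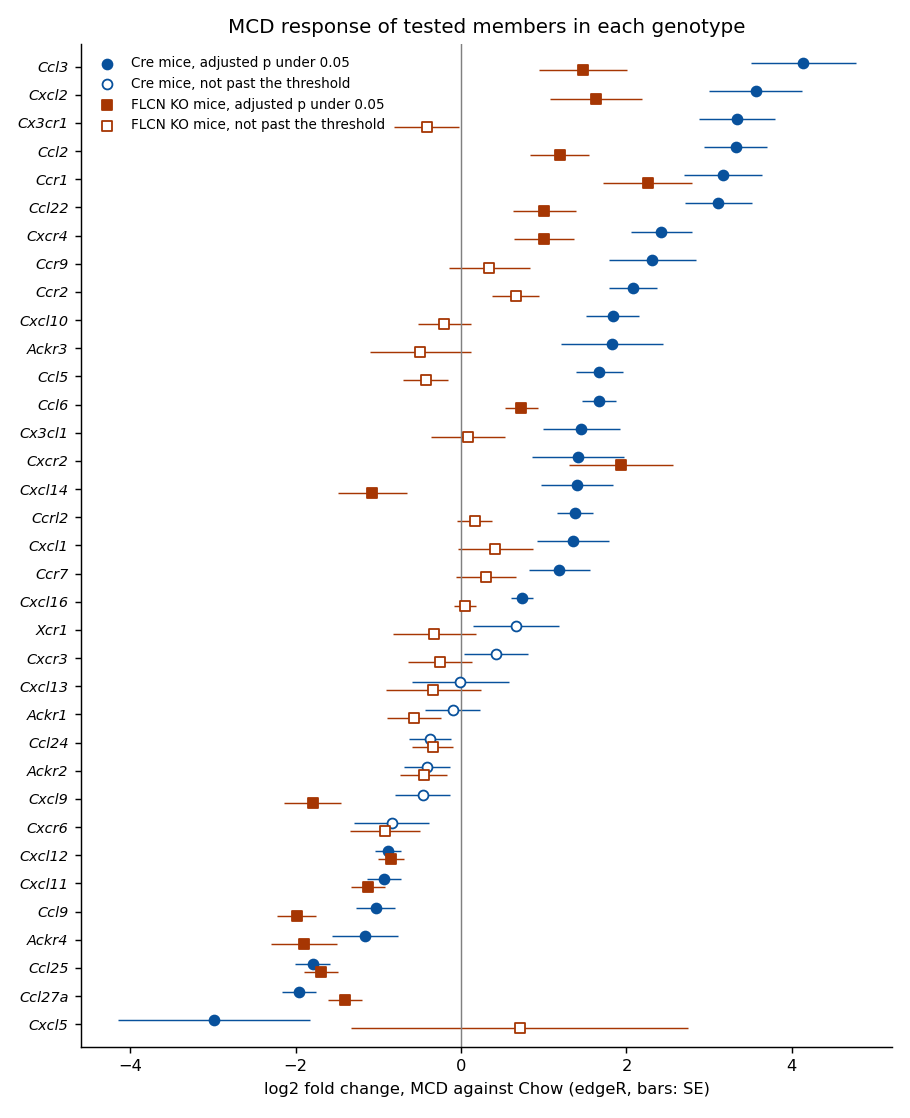
Log2 fold change of MCD against Chow (x axis, with SE) for 35 of the 36 tested members (y axis), as circles in Cre and squares in FLCN KO mice, filled where the edgeR adjusted p was under 0.05. The filled circles to the right of 0 number 20 and the filled squares there 8, while Cxcl12, Ccl25 and Ccl27a fell in both genotypes.

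The interaction of genotype and diet, the log2 fold change with MCD in FLCN KO minus that in Cre mice, was called for 10 members and was negative for all 10, where 8.83% of all genes were called (3.29% positive and 5.54% negative). Of the 36 members, 30 had a negative estimate, with a median of -0.94 against 0.03 over all tested genes. The 10 were the ligands Ccl2, Ccl5, Ccl6, Ccl22, Cxcl10, Cxcl14 and Cxcl16 and the receptors Ccr2, Cx3cr1 and Ccrl2. Leaving out 1 library at a time gave 7 to 14 called members. Without the 5 female libraries with Y-linked reads only Cx3cr1 was called, where 0.591% of all genes were, and 31 of 36 estimates were negative with a median of -0.75. Without the 5 Chow libraries with few uniquely aligned reads 6 members were called (5.49% of all genes), 4 of them among the 10. The 4 were Ccl5, Cx3cr1, Cxcl10 and Cxcl14. Female livers alone gave 8 (8.62% of all genes), of which Ccl2, Ccl5, Cx3cr1, Cxcl14 and Cxcl16 were among the 10. Male livers alone gave 2 (0.441% of all genes), Ccl5 and Cxcl10.

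Cx3cr1, the fractalkine receptor, had the largest called interaction among the members. It ranged from 0.247 over a median of 0.514 to 0.743 CPM in Cre Chow livers, and it had 5.39, 3.49, 6.55, 6.25 and 3.17 CPM in Cre MCD livers. FLCN KO livers had 2.64, 2.25, 1.21, 10.5 and 3.34 CPM on Chow, and 1.51 to 4.47 CPM with a median of 3.21 on MCD. On Chow every FLCN KO liver was above every Cre liver, with FLCN KO Chow 4 highest. The level rose by a log2 fold change of 3.34 with MCD in Cre mice (SE 0.464, edgeR adjusted p = 3.5e-06), and the estimate in FLCN KO mice was -0.42 (SE 0.394, edgeR adjusted p = 0.41). The interaction was -3.75 (SE 0.609, edgeR adjusted p = 0.0011), it was called whichever single library was left out, and it was -2.78 without the 5 female libraries with Y-linked reads (edgeR adjusted p = 0.019). In male livers alone it was called neither in the interaction (edgeR adjusted p = 0.068) nor between genotypes on Chow (edgeR adjusted p = 0.051). The MCD estimate in FLCN KO mice was -1.25 in females and 0.96 in males, with adjusted p-values of 0.053 and 0.068 from edgeR.

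Ccl5 (RANTES), a ligand of CCR1 and CCR3, had 0.27 to 1.28 CPM in Cre Chow livers, with a median of 0.745 CPM. Cre MCD livers had 2.14, 2.07, 2.67, 3.54 and 2.51 CPM, all above the Cre Chow livers. FLCN KO livers had 2.80, 1.60, 2.28, 2.75 and 2.05 CPM on Chow, again all above the Cre Chow livers, and 1.14 to 2.58 CPM with a median of 1.53 on MCD. The MCD response was 1.67 in Cre mice (SE 0.290, edgeR adjusted p = 4.8e-05) and -0.43 in FLCN KO mice (SE 0.274, edgeR adjusted p = 0.21). Its interaction of -2.10 (SE 0.398, edgeR adjusted p = 0.0033) was called whichever single library was left out, and without the 5 female libraries with Y-linked reads it had an adjusted p of 0.056 from edgeR.

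Ccl2 (MCP-1), the main ligand of CCR2, had 0.241 to 1.03 CPM in Cre Chow livers, with a median of 0.654 CPM. On MCD the Cre livers had 10.1, 2.54, 6.09, 6.98 and 7.78 CPM. FLCN KO livers had 2.02, 1.31, 0.872, 1.87 and 1.29 CPM on Chow and 1.35 to 4.87 CPM, with a median of 3.52 CPM, on MCD. Ccl2 rose with MCD in both genotypes, by a log2 fold change of 3.32 in Cre (SE 0.380, edgeR adjusted p = 2.6e-07) and of 1.19 in FLCN KO mice (SE 0.360, edgeR adjusted p = 0.0099). The rise in FLCN KO mice was not called by limma-voom (adjusted p = 0.054) or in female livers alone, where it was 0.54 (edgeR adjusted p = 0.38). The interaction of Ccl2 was -2.13 (SE 0.518, edgeR adjusted p = 0.015). It was not called by limma-voom (adjusted p = 0.070) or without the 5 Chow libraries with few uniquely aligned reads (edgeR adjusted p = 0.089). Ccr2, the receptor that marks classical monocytes, had 0.963 to 2.10 CPM with a median of 1.57 in Cre Chow and 7.89, 3.79, 8.99, 7.12 and 5.63 CPM in Cre MCD livers. In FLCN KO livers Ccr2 had 1.32, 2.85, 2.21, 3.30 and 3.39 CPM on Chow and 2.00 to 5.61 CPM with a median of 4.56 on MCD. Cre groups did not overlap between diets for either gene. The interaction of Ccr2 was -1.42 (SE 0.404, edgeR adjusted p = 0.032). It was not called without any 1 of Cre MCD 1, Cre MCD 4, FLCN KO Chow 4, FLCN KO Chow 5 or FLCN KO MCD 6 (edgeR adjusted p up to 0.065). Nor was it called by limma-voom or with the replicate block.

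Cxcl10 (IP-10), the interferon-inducible CXCR3 ligand whose promoter is printed above, had 2.01 to 6.48 CPM with a median of 3.60 in Cre Chow livers. Cre MCD livers had 21, 5.29, 16.1, 18.8 and 9.98 CPM, and Cre MCD 2 alone lay inside the Chow range. FLCN KO livers had 3.34, 6.11, 4.90, 7.65 and 9.96 CPM on Chow and 3.34 to 6.59 CPM with a median of 6.11 on MCD, with broad overlap. Cxcl10 rose on MCD by 1.83 on the log2 scale in Cre mice (SE 0.323, edgeR adjusted p = 5.9e-05), and its estimate was -0.20 in FLCN KO mice (SE 0.320, edgeR adjusted p = 0.64). The interaction was -2.03 (SE 0.453, edgeR adjusted p = 0.0089). It was not called in female livers alone (-1.96, edgeR adjusted p = 0.058). Cxcl9, another CXCR3 ligand, was not called in Cre mice (-0.47, SE 0.336, edgeR adjusted p = 0.24) and fell by 1.80 on the log2 scale in FLCN KO mice (SE 0.341, edgeR adjusted p = 0.00021). The interaction of Cxcl9 was not called. In FLCN KO livers Cxcl9 had 11.6, 27.6, 16.6, 32.7 and 30.7 CPM on Chow and 3.24 to 9.71 CPM on MCD, without overlap. Cxcl11, the remaining ligand of this receptor and annotated as a polymorphic pseudogene, fell in both genotypes, by 0.93 in Cre and by 1.13 in FLCN KO mice on the log2 scale. Cxcr3 itself, at 0.238 to 1.26 CPM, was called in no comparison.

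Ccl6, a macrophage-expressed CCR1 ligand, had 7.63 to 11 CPM in Cre Chow livers, with a median of 10.3 CPM. Cre MCD livers had 32.2, 24.5, 19.8, 38.5 and 38.8 CPM, all above the Chow livers. FLCN KO livers had 10.4, 11.5, 11.3, 6.39 and 10.0 CPM on Chow and 9.02 to 20.1 CPM with a median of 17.6 on MCD. Both genotypes rose, by 1.67 in Cre (SE 0.200, edgeR adjusted p = 5.1e-07) and 0.73 in FLCN KO mice (SE 0.203, edgeR adjusted p = 0.0056) on the log2 scale. The interaction of -0.94 (SE 0.282, edgeR adjusted p = 0.041) was lost in 14 of the 22 fits that left out 1 library (edgeR adjusted p up to 0.083). These were the fits without Cre Chow 1, 2, 5 or 6, Cre MCD 1, 4 or 5, FLCN KO Chow 1, 2, 3 or 5, or FLCN KO MCD 3, 4 or 5. The interaction of Ccl6 was also not called by limma-voom, with no filter on low counts or with the replicate block. Ccl22, a dendritic cell and macrophage ligand of CCR4, had 0.0802 to 0.432 CPM with a median of 0.147 in Cre Chow and 2.18, 1.03, 2.39, 1.94 and 0.870 CPM in Cre MCD livers. In FLCN KO livers Ccl22 had 0.466, 0.297, 0.268, 0.330 and 0.753 CPM on Chow and 0.486 to 1.28 CPM with a median of 0.830 on MCD. Ccl22 rose by 3.11 in Cre mice (SE 0.406, edgeR adjusted p = 1.6e-06) and by 1.01 in FLCN KO mice (SE 0.381, edgeR adjusted p = 0.036). The latter was not called without FLCN KO Chow 1, 2, 3 or 4 or FLCN KO MCD 1 or 5 (edgeR adjusted p up to 0.089). Its interaction was -2.10 (SE 0.570, edgeR adjusted p = 0.025), with an adjusted p of 0.072 from edgeR without FLCN KO Chow 5. With the replicate block this interaction was not called.

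Cxcl14, a ligand made by epithelial and stromal cells, had 1.34 to 3.18 CPM with a median of 2.23 in Cre Chow and 8.22, 4.00, 3.93, 7.70 and 5.17 CPM in Cre MCD livers. FLCN KO livers had 4.90, 3.62, 15.4, 4.57 and 2.10 CPM on Chow and 1.37 to 5.85 CPM with a median of 2.40 on MCD. The gene rose with MCD in Cre mice by 1.40 (SE 0.430, edgeR adjusted p = 0.0083) and fell by 1.07 in FLCN KO mice on the log2 scale (SE 0.419, edgeR adjusted p = 0.042). The interaction of Cxcl14 was -2.47 (SE 0.601, edgeR adjusted p = 0.014) and -1.78 without FLCN KO Chow 3 (edgeR adjusted p = 0.030), and it was not called with the replicate block (edgeR adjusted p = 0.069). The rise in Cre mice was not called without the 5 female libraries with Y-linked reads (1.17, edgeR adjusted p = 0.060) or in male livers alone (1.06, edgeR adjusted p = 0.12). The fall in FLCN KO mice rested on single libraries, with an exact permutation p of 0.12. It was -0.39 without FLCN KO Chow 3 (edgeR adjusted p = 0.41), and it was not called without any 1 of FLCN KO MCD 3, 4, 5 or 6 either. Cxcl16, the membrane-bound ligand of CXCR6, rose by 0.74 in Cre mice (SE 0.135, edgeR adjusted p = 9.4e-05) and was at 0.04 in FLCN KO mice (SE 0.135, edgeR adjusted p = 0.81). Ccrl2, an atypical receptor that holds chemerin at the cell surface, rose by 1.38 in Cre mice (SE 0.216, edgeR adjusted p = 1.5e-05) and was at 0.16 in FLCN KO mice (SE 0.212, edgeR adjusted p = 0.56). Their interactions were -0.69 for Cxcl16 (SE 0.191, edgeR adjusted p = 0.028) and -1.22 for Ccrl2 (SE 0.302, edgeR adjusted p = 0.016). That of Cxcl16 was not called without any 1 of Cre MCD 1, Cre MCD 4, FLCN KO Chow 5, FLCN KO MCD 3 or FLCN KO MCD 6 (edgeR adjusted p up to 0.059). Nor was the interaction of Cxcl16 called with the replicate block. That of Ccrl2 was not called without the 5 Chow libraries with few uniquely aligned reads, without the 5 female libraries with Y-linked reads or in livers of either sex alone (edgeR adjusted p up to 0.23). Cxcl16 and Ccrl2 did not overlap between diets in Cre mice, at 6.42 to 9.97 CPM on Chow against 11.5 to 17.6 CPM on MCD for Cxcl16 and at 0.788 to 1.88 against 2.41 to 4.12 CPM for Ccrl2. In FLCN KO livers Cxcl16 had 9.46 to 12.6 CPM on Chow and 9.81 to 14.7 CPM on MCD, and Ccrl2 had 1.48 to 3.47 and 2.10 to 3.01 CPM, with overlap for both.

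**Figure D2:**
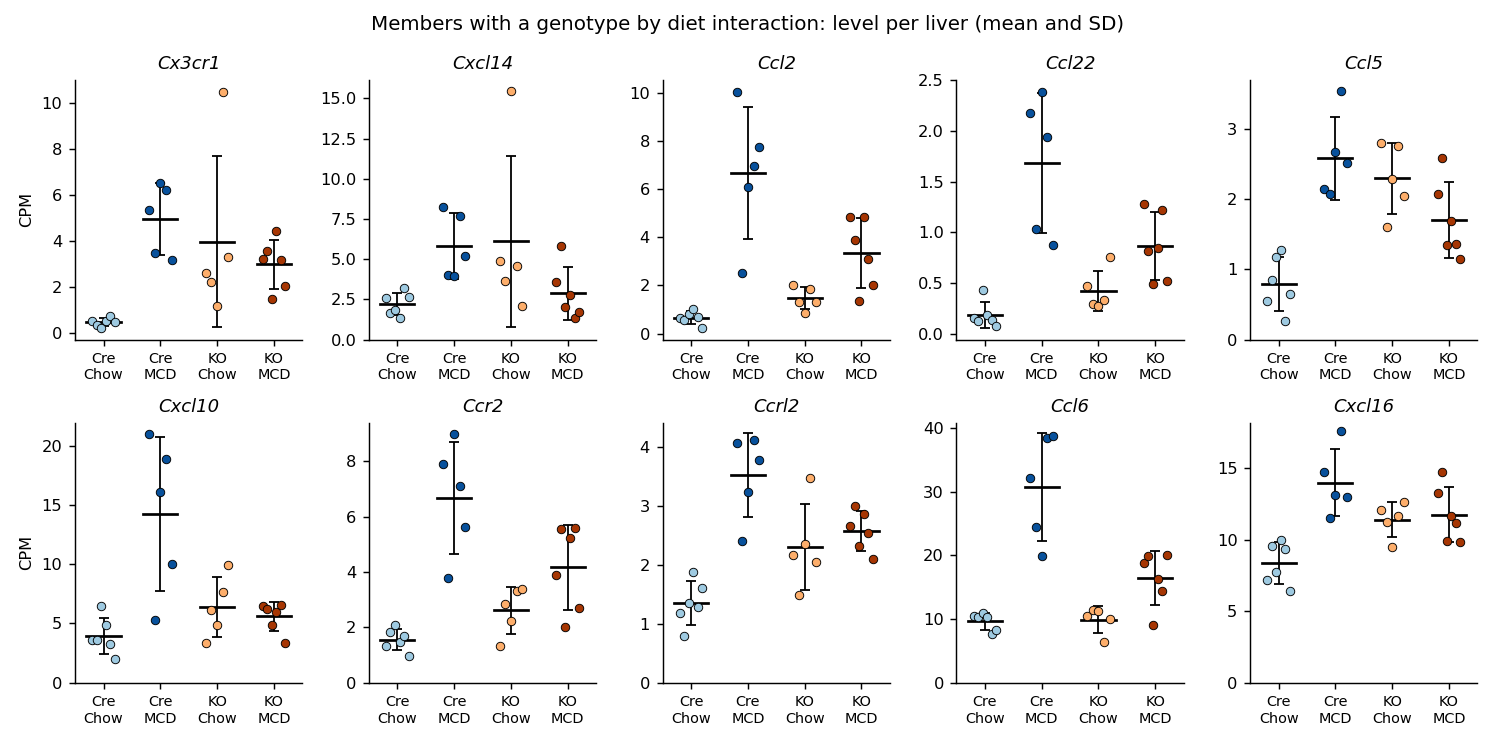
CPM (y axis, linear) of the 10 members with a called interaction in every liver (1 point each), by group (x axis), with the group mean and SD. In Cre mice the MCD points lie above the Chow points except that Cxcl10 of Cre MCD 2 (5.29 CPM) lies within the Chow range, while in FLCN KO mice the points of both diets overlap for each of the 10 genes.

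Between genotypes on Chow, 6 members were called, 5 higher and 1 lower in FLCN KO livers, where 8.62% of all genes were called (5.52% higher and 3.1% lower). Those higher began with Cx3cr1, by a log2 fold change of 3.03 (SE 0.467, edgeR adjusted p = 0.00018), and Ccl5 by 1.5 (SE 0.294, edgeR adjusted p = 0.0020). The other 3 were Cxcl14 by 1.47 (SE 0.434, edgeR adjusted p = 0.037), Ccrl2 by 0.77 (SE 0.222, edgeR adjusted p = 0.032) and Cxcl16 by 0.44 (SE 0.137, edgeR adjusted p = 0.046). The median over the 36 members was 0.49 against -0.03 over all tested genes. Cx3cr1 and Ccl5 alone did not overlap between the genotypes (6.94% of all genes), with exact permutation p-values of 0.00216 and 0.00433 (two-sided, 5 against 6 livers, smallest possible 0.00216). They are also the 2 members called without the 5 female libraries with Y-linked reads, and leaving out 1 library at a time gave 2 to 7 called members, with 2 without FLCN KO Chow 4 and 3 without FLCN KO Chow 3. With 1 library left out Cx3cr1 stayed called with a log2 fold change of 2.27 to 3.26 and Ccl5 with 1.32 to 1.69. Without the 5 Chow libraries with few uniquely aligned reads 2 members were called (3.47% of all genes), and of the 6 only Cx3cr1 was among them. Ccl5 was not called there (0.95, edgeR adjusted p = 0.13) or in female livers alone (0.96, edgeR adjusted p = 0.062). Cxcl14 was not called without any 1 of Cre Chow 1 to 4 or FLCN KO Chow 3 or 4 (edgeR adjusted p up to 0.21), and it was 0.78 without FLCN KO Chow 3. Ccrl2 was not called without Cre Chow 1, 2, 3 or 5 or FLCN KO Chow 3 or 4 (edgeR adjusted p up to 0.15). Cxcl16 was not called in 11 of the 22 fits, those without Cre Chow 1, 3, 5 or 6, Cre MCD 1, FLCN KO Chow 1, 2, 4 or 5, or FLCN KO MCD 4 or 5 (edgeR adjusted p up to 0.11).

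The member lower on Chow, the CXCR2 ligand Cxcl5, rested on 1 library. Cre Chow 5 had 23.8 CPM while the other Cre Chow livers had at most 0.788 CPM. All 5 FLCN KO Chow livers had at most 3 counts, so the Cre mean was at least 22.1-fold higher against the floor of 3 counts per library. Without Cre Chow 5 the gene was below the filter and was not tested. The same library had the highest Cxcl1 (26.6 CPM) and Cx3cl1 (2.16 CPM) of all 22 and the highest Cxcr2 of its group (1.08 CPM). Its bile duct markers summed to 47.4 CPM against at most 33.5 CPM in any other library, and their part in the result was not tested. With Cre Chow 5 included, the fall of Cxcl5 with MCD in Cre mice (-2.99, SE 1.16, edgeR adjusted p = 0.032) was also not called without Cre MCD 1, 2, 3 or 5 (edgeR adjusted p up to 0.069), and the genotype call was lost without FLCN KO Chow 3, 4 or 5 (up to 0.070).

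On MCD the members called between genotypes were all lower in FLCN KO livers. They numbered 8, where 16.6% of all genes were called, 8.06% higher and 8.53% lower, and 31 of 36 estimates were negative with a median of -0.60 against -0.01 over all genes. The 4 largest differences were those of Cxcl1 (-1.67, SE 0.433, edgeR adjusted p = 0.011), Ccr1 (-1.49, SE 0.402, edgeR adjusted p = 0.013), Cxcl10 (-1.35, SE 0.314, edgeR adjusted p = 0.0051) and Cxcl9 (-1.01, SE 0.339, edgeR adjusted p = 0.045). The remaining 4 were Ccl2 (-0.99, SE 0.329, edgeR adjusted p = 0.042), Ccl22 (-0.96, SE 0.330, edgeR adjusted p = 0.0497), Ccl6 (-0.90, SE 0.195, edgeR adjusted p = 0.0029) and Ccl9 (-0.90, SE 0.229, edgeR adjusted p = 0.0094). Cxcl1 and Ccr1 did not overlap between genotypes (8.61% of all genes). Without the 5 female libraries with Y-linked reads only Ccl6 was called, at -0.76 (edgeR adjusted p = 0.014), where 8.55% of all genes were, and the median of the 36 members was -0.50. Without the 5 Chow libraries with few uniquely aligned reads 8 were called (19.2% of all genes), 7 of them the same genes. Leaving out 1 library at a time gave 5 to 11 called members, with 5 without Cre MCD 1, Cre MCD 4, FLCN KO MCD 3 or FLCN KO MCD 6. The call of Ccl2 was lost without any 1 of Cre MCD 1, 4 or 5 or FLCN KO MCD 3, 5 or 6 (edgeR adjusted p up to 0.14). That of Cxcl9 was lost in 11 and that of Ccl22 in 15 of the 22 fits (edgeR adjusted p up to 0.10 and 0.13), including for both the fits without Cre MCD 1, 3 or 4 or FLCN KO MCD 3, 4 or 6. The calls of Cxcl1, Ccr1, Cxcl10, Ccl6 and Ccl9 held whichever single library was left out. Of the 8, female livers alone kept Ccl2, Ccl6, Ccr1 and Cxcl1, and male livers alone kept Ccl9 and Cxcl10. The 80 exact permutation tests of the described members in the diet and genotype comparisons covered 45 calls of edgeR, of which 4 had a permutation p above the threshold. They were Ccl2 between genotypes on MCD (0.052), Cxcl14 with MCD in FLCN KO mice (0.12), and Cxcl5 between genotypes on Chow (0.32) and with MCD in Cre mice (0.92, where the difference of mean log2 CPM was 0.24). The 2 genotype comparisons and the interaction use the same libraries as the diet comparisons, so their values are not independent of those given above.

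**Figure D3:**
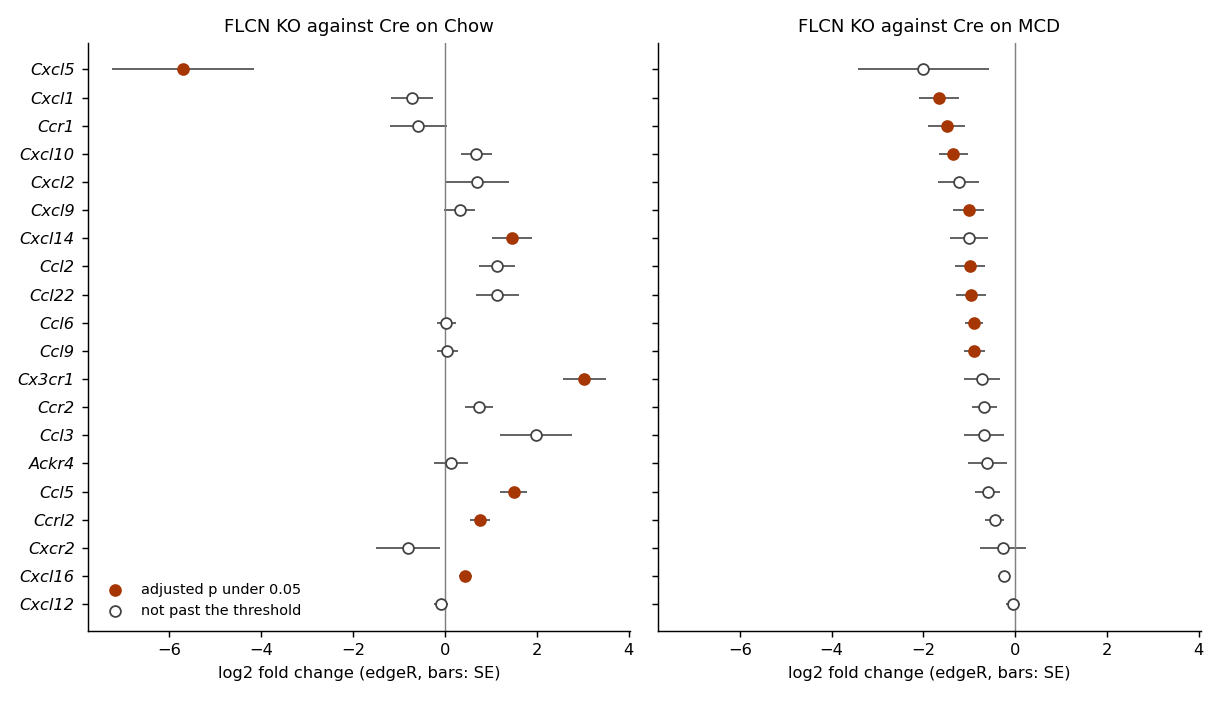
Log2 fold change of FLCN KO against Cre livers (x axis, with SE) on Chow (left) and on MCD (right) for the 20 members described per library (y axis), filled where the edgeR adjusted p was under 0.05. On Chow the filled points of Cx3cr1, Ccl5, Cxcl14, Ccrl2 and Cxcl16 lie above 0 and that of Cxcl5 below it, and on MCD all 8 filled points lie below 0.

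The neutrophil attractants gave a mixed picture. Cxcl1, a CXCR2 ligand, had 1.88 to 26.6 CPM with a median of 5.06 in Cre Chow livers, where Cre Chow 5 was far above the rest. Cre MCD livers had 24.5, 25.0, 22.0, 13.0 and 22.5 CPM, all above the 3.97 to 9.85 CPM of the FLCN KO MCD livers (median 5.80 CPM; exact permutation p = 0.00216). FLCN KO Chow livers had 6.06, 7.12, 3.69, 4.85 and 3.66 CPM. The MCD response of Cxcl1 was 1.36 in Cre mice (SE 0.433, edgeR adjusted p = 0.011), and 2.19 without Cre Chow 5, against 0.41 in FLCN KO mice (SE 0.453, edgeR adjusted p = 0.48). In Cre mice it was not called without the 5 female libraries with Y-linked reads (1.18, edgeR adjusted p = 0.069) or in male livers alone (0.42, edgeR adjusted p = 0.59). The interaction of Cxcl1 was not called. It was -2.07 in female livers alone (edgeR adjusted p = 0.013) and -0.35 in male livers alone (edgeR adjusted p = 0.94). Cxcl2, another CXCR2 ligand, rose in both genotypes, by 3.57 in Cre mice (SE 0.563, edgeR adjusted p = 1.7e-05) and by 1.63 in FLCN KO mice (SE 0.555, edgeR adjusted p = 0.021). The latter was not called without FLCN KO MCD 4 (edgeR adjusted p = 0.066), without the 5 Chow libraries with few uniquely aligned reads (1.34, edgeR adjusted p = 0.11) or in female livers alone (0.67, edgeR adjusted p = 0.50). Nor was it called by limma-voom (1.35, adjusted p = 0.10). Cxcl2 had at most 0.405 CPM in Cre Chow livers against 2.01, 0.602, 1.26, 2.23 and 2.92 CPM in Cre MCD livers, without overlap. Its level in FLCN KO livers was 0.155, 0.237, 0.134, 0.275 and 0.377 CPM on Chow and 0.162 to 1.56 CPM on MCD, and 5 of the 6 MCD livers lay above every Chow liver. Their receptor Cxcr2 rose in both genotypes too, by 1.41 in Cre (SE 0.560, edgeR adjusted p = 0.036) and 1.94 in FLCN KO mice (SE 0.626, edgeR adjusted p = 0.015). Its interaction of 0.52 was not called (SE 0.845, edgeR adjusted p = 0.76). Cxcr2 had 0.0608 to 1.08 CPM with a median of 0.142 in Cre Chow and 0.822, 0.775, 1.03, 1.02 and 1.02 CPM in Cre MCD livers, and Cre Chow 5 alone reached the MCD livers. Its level in FLCN KO livers was 0, 0.237, 0.402, 0.275 and 0.0538 CPM on Chow and 0.324 to 1.72 CPM with a median of 0.627 on MCD, with overlap. The rise of Cxcr2 in Cre mice was not called in 7 of 21 fits, those without Cre Chow 1, 3, 4 or 6 or Cre MCD 3, 4 or 5 (edgeR adjusted p up to 0.078). Nor was it called in male livers alone (1.16, edgeR adjusted p = 0.35) or without the 5 female libraries with Y-linked reads (edgeR adjusted p = 0.053).

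Ccr1, the receptor of CCL3, CCL5 and the CCL6 and CCL9 group, was at or near 0 in Chow livers, with 0 to 0.676 CPM (median 0.182) in Cre and 0, 0.178, 0.201, 0.110 and 0.323 CPM in FLCN KO livers. On MCD the Cre livers had 2.59, 1.76, 2.53, 2.52 and 2.40 CPM and the FLCN KO livers 0.270 to 1.48 CPM with a median of 0.783, without overlap (exact permutation p = 0.00433). Ccr1 rose in both genotypes, by 3.17 in Cre (SE 0.473, edgeR adjusted p = 8.5e-06) and 2.26 in FLCN KO mice (SE 0.539, edgeR adjusted p = 0.0017). Its ligand Ccl3 was listed at 0 in 4 of the 6 Cre Chow livers, with at most 0.243 CPM, and had 1.15, 0.559, 0.936, 1.26 and 1.59 CPM in Cre MCD livers. The fitted log2 fold change of Ccl3 in Cre mice was 4.14 (SE 0.634, edgeR adjusted p = 1.1e-05), a size that rests on at most 4 counts in any Cre Chow liver. It was 3.88 to 5.74 with 1 library left out, highest without Cre Chow 4, and in 4 of the 22 fits the gene was below the filter and was not tested. For Ccl3 it was 1.47 in FLCN KO mice (SE 0.531, edgeR adjusted p = 0.028), which was not called without any 1 of FLCN KO Chow 2 to 5 (edgeR adjusted p up to 0.077). The level of Ccl3 in FLCN KO livers was 0.699, 0.119, 0.201, 0.110 and 0.161 CPM on Chow and 0.378 to 1.25 CPM on MCD, and FLCN KO Chow 1 lay within the MCD range. Ccl9, another CCR1 ligand, went the other way and fell by 1.03 in Cre (SE 0.232, edgeR adjusted p = 0.00070) and by 1.99 in FLCN KO mice (SE 0.232, edgeR adjusted p = 6.9e-07). It had 69.7, 21.5, 50.4, 68.9 and 37.7 CPM in Cre MCD and 21.7 to 38.3 CPM in FLCN KO MCD livers. Chow livers had 76.6 to 116 CPM in Cre and 83.0 to 129.9 CPM in FLCN KO mice, so that no MCD liver of either genotype reached the Chow livers.

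Cxcl12, Ccl25, Ccl27a and Ackr4 fell with MCD in both genotypes. Of the 5 atypical receptors, Ackr4 alone fell, while Ackr3 and Ccrl2 rose in Cre mice and Ackr1 and Ackr2 were not called. Cxcl12, the stromal ligand of CXCR4, fell by 0.89 in Cre (SE 0.159, edgeR adjusted p = 7.3e-05) and by 0.85 in FLCN KO mice (SE 0.156, edgeR adjusted p = 0.00015) on the log2 scale. It had 233 to 369.7 CPM in Cre Chow and 161, 102, 243, 158 and 164 CPM in Cre MCD livers. Cxcl12 in FLCN KO livers was at 279, 336, 261, 289 and 279 CPM on Chow and 127 to 189.7 CPM on MCD. Its receptor Cxcr4, present on most leukocytes, rose by 2.42 in Cre (SE 0.369, edgeR adjusted p = 1.1e-05) and by 1.00 in FLCN KO mice (SE 0.365, edgeR adjusted p = 0.029). The latter was not called without FLCN KO Chow 2 or 3 or FLCN KO MCD 2 or 4 (edgeR adjusted p up to 0.082), or in livers of either sex alone. Ackr4, a scavenger of CCL19, CCL21 and CCL25, fell by 1.16 in Cre (SE 0.398, edgeR adjusted p = 0.016, and 0.0501 without Cre MCD 5) and by 1.90 in FLCN KO mice (SE 0.404, edgeR adjusted p = 0.00062). Ackr4 had 0.562 to 1.76 CPM with a median of 1.24 in Cre Chow and 0.740, 0.344, 1.08, 0.388 and 0.205 CPM in Cre MCD livers, with overlap. The level in FLCN KO livers was 0.777, 2.02, 1.01, 0.826 and 2.15 CPM on Chow and 0.143 to 0.541 CPM on MCD, without overlap. Ccl25, the ligand of CCR9, fell by 1.80 and 1.70 in Cre and FLCN KO mice, and Ccl27a, a ligand of CCR10, by 1.96 and 1.41. The interaction was called for none of these 5 genes (adjusted p of 0.089 or more from edgeR).

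Among the remaining members, Ackr3, Ccr7, Ccr9 and Cx3cl1 rose with MCD in Cre mice by 1.83, 1.19, 2.31 and 1.46 on the log2 scale and had estimates of -0.49, 0.30, 0.34 and 0.09 in FLCN KO mice. None of the latter and none of their interactions was called. The highest Ackr3 level, 4.03 CPM, was that of Cre MCD 3, the library with muscle RNA, while the other Cre MCD livers had 0.512 to 0.727 CPM. Without Cre MCD 3, which held 86 of its counts, Ackr3 was below the filter and was not tested, so its rise rests on that library. Of the 35 members tested without Cre MCD 3, 25 were called for MCD in Cre mice (58.5% of all genes), 7 between genotypes on MCD (17% of all genes) and 10 in the interaction (10.2% of all genes). Ackr1, Ackr2, Ccl24, Cxcl13, Cxcr3, Cxcr6 and Xcr1 were called in none of the 5 comparisons, and Cxcl13, the B cell attractant, ranged from 0.493 to 7.93 CPM over the 22 livers.

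**Figure D4:**
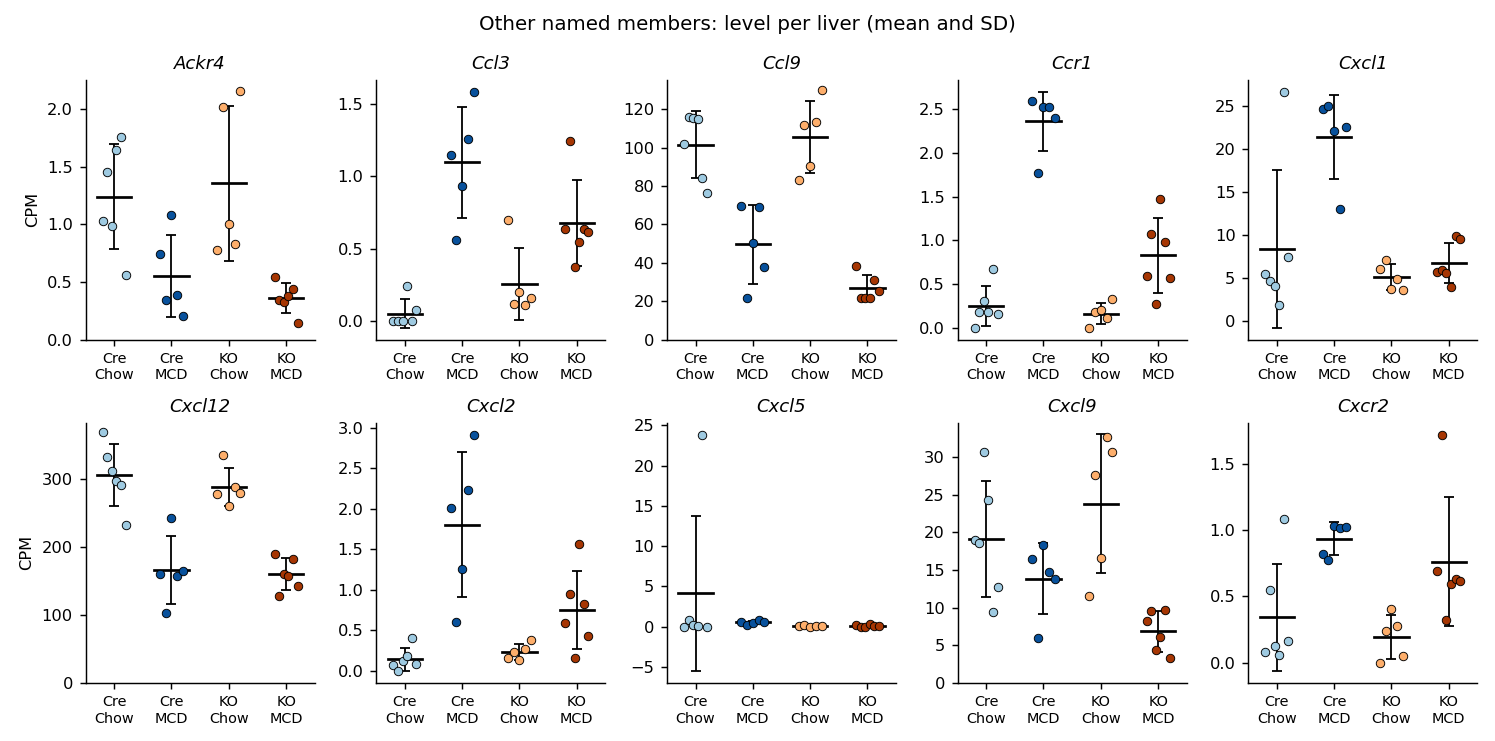
CPM (y axis, linear) in every liver (1 point each) by group (x axis) for the other 10 members described per library, with the group mean and SD. The Cre MCD livers lie above the FLCN KO MCD livers without overlap for Ccr1 and Cxcl1, and Cxcl5 shows 1 liver, Cre Chow 5, at 23.8 CPM.

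Other genes of the pathway were read from the same fit. Over all tested genes, 29.3% were called higher and 28.2% lower on MCD in Cre mice and 22.5% each way in FLCN KO mice, and 5.54% had a called negative interaction. Between genotypes on MCD, 8.06% were higher and 8.53% lower in FLCN KO livers. Of 35 tested genes of chemokine receptor signal transduction, 23 were called higher and 4 lower on MCD in Cre mice and 6 and 6 in FLCN KO mice. The interaction was called for 11, all negative, with a median of -0.74 against 0.03 over all genes. Coro1a, an actin regulator of leukocytes, had an interaction of -1.40 (SE 0.291, edgeR adjusted p = 0.0056). For Pik3cg, the PI3-kinase subunit driven by these receptors, it was -1.52 (SE 0.437, edgeR adjusted p = 0.034), and for Elmo1, an activator of Rac, -1.25 (SE 0.302, edgeR adjusted p = 0.014). Of 18 tested adhesion genes, 11 rose and 1 fell in Cre mice, 3 rose and 6 fell in FLCN KO mice, and 5 had a called interaction, all negative. Itgb2, the beta chain of the leukocyte integrins, had a mean of 8.43 CPM in Cre Chow, 26.2 in Cre MCD, 12.6 in FLCN KO Chow and 13.5 in FLCN KO MCD livers (interaction -1.54, SE 0.307, edgeR adjusted p = 0.0045). Itga4 and Itgb7, which pair as a homing integrin, had interactions of -1.56 and -1.27. Of 9 tested other chemoattractant receptors, C3ar1, the receptor of the complement fragment C3a, was the 1 with a called interaction (-1.33, SE 0.325, edgeR adjusted p = 0.015). Over all tested genes 8.83% had a called interaction. The list averaged 117 summed CPM in Cre Chow, 59.2 in Cre MCD, 116 in FLCN KO Chow and 51.6 in FLCN KO MCD livers. S1pr1 was its most abundant gene, and the sum does not stand for each gene. With MCD, 2 of the 9 were called higher and 3 lower in Cre mice (median 0.04). In FLCN KO mice 1 was called higher and 4 lower (median -0.44). Of 23 tested inducing cytokine and NF-kB genes, 10 rose and 2 fell in Cre mice, 4 rose and 5 fell in FLCN KO mice, and 6 interactions were called, all negative. They were led by the NF-kB feedback inhibitor Tnfaip3 (-1.59, SE 0.328, edgeR adjusted p = 0.0054), the subunit Relb (-1.46, SE 0.286, edgeR adjusted p = 0.0040) and the inhibitor Nfkbie (-1.09, SE 0.279, edgeR adjusted p = 0.019). On MCD, FLCN KO livers were lower for 12, 6, 2 and 7 genes of these 4 lists and higher for 1, 1, 0 and 0. Pf4, a platelet and macrophage chemokine with a symbol outside the rule, had an interaction of -1.36 (SE 0.371, edgeR adjusted p = 0.026). Mif, a cytokine that binds CXCR2 and CXCR4, rose in both genotypes and was higher in FLCN KO livers on MCD (0.61, SE 0.165, edgeR adjusted p = 0.014).

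Markers of the cell types in liver were read beside the members. The 8 monocyte-derived macrophage markers, led in level by Spp1, summed to 73.9 ± 15.1 CPM in Cre Chow (SD, n = 6), 409 ± 91.7 in Cre MCD (SD, n = 5), 148 ± 50.3 in FLCN KO Chow (SD, n = 5) and 325 ± 122 in FLCN KO MCD livers (SD, n = 6). All 8 rose with MCD in Cre mice and 6 in FLCN KO mice, and 4 were higher in FLCN KO livers on Chow. The interaction was called for 4, all negative, among them Trem2 (-2.81, SE 0.498, edgeR adjusted p = 0.0021), Ly6c2 (-1.87, SE 0.518, edgeR adjusted p = 0.028) and Gpnmb (-2.95, SE 0.824, edgeR adjusted p = 0.029). Gpnmb was higher in FLCN KO livers on Chow (3.04, SE 0.705, edgeR adjusted p = 0.0082). On MCD it was not called between genotypes (0.09, SE 0.402, edgeR adjusted p = 0.91), at means of 128 CPM in Cre and 137 CPM in FLCN KO livers. The 7 neutrophil markers, led by S100a9, summed to 6.00 CPM in Cre Chow, 32.1 in Cre MCD, 6.68 in FLCN KO Chow and 18.2 in FLCN KO MCD livers on average. Of the 7, 4 were tested, and none of the 4 had a called interaction. The defining marker Ly6g was near 0 throughout, at a mean of 0.0344 CPM or less. The 5 dendritic cell markers summed to 7.39, 21.8, 8.51 and 11.1 CPM in the same order. Of the 4 tested, 3 were called higher and 1 lower with MCD in Cre mice, and 1 had a called interaction. This was Itgax, their most abundant gene, at -2.88 (SE 0.569, edgeR adjusted p = 0.0042). Itgax alone had means of 0.623, 13.9, 1.51 and 4.46 CPM in the same order, so the sum largely follows this gene. T cell markers summed to 5.13, 5.69, 7.78 and 4.57 CPM and Kupffer cell markers, led by Cd5l, to 388, 358, 445 and 326 CPM, and neither list had a gene with a called interaction. The part of these cell types in the chemokine values was not tested.

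**Figure D5:**
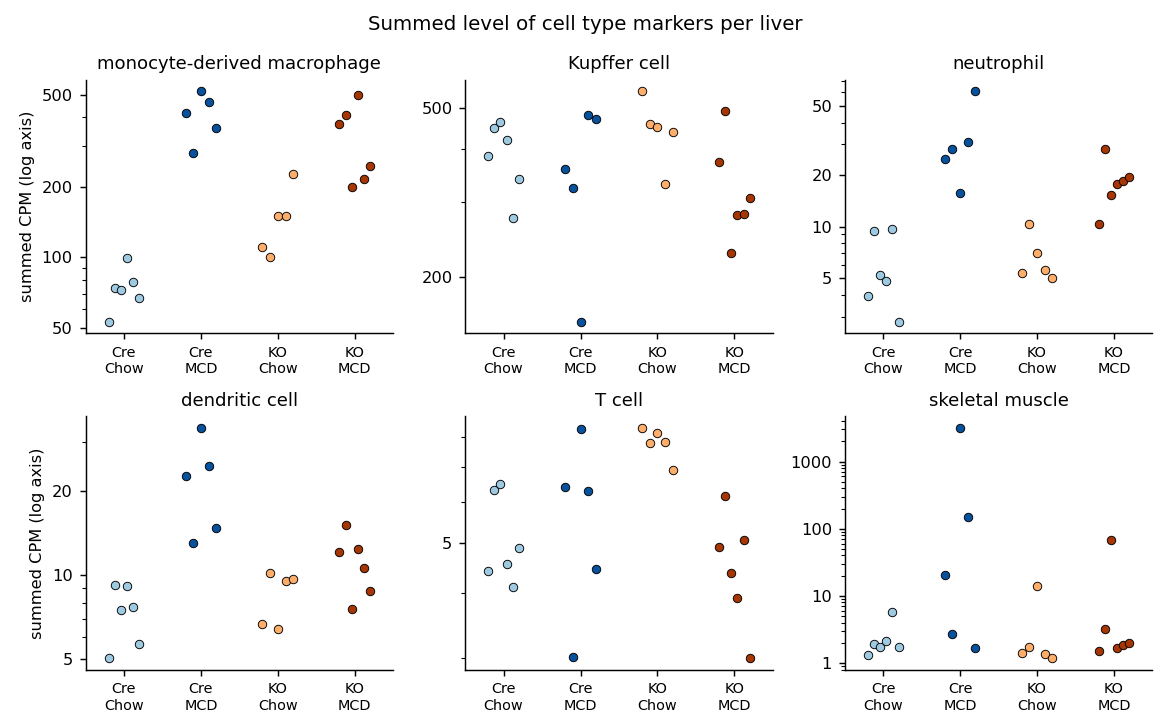
Summed CPM of 6 lists of cell type markers (y axis, log scale) in every liver (1 point each) by group (x axis). Monocyte-derived macrophage markers are highest in the MCD groups and lie between 101 and 229 CPM in FLCN KO Chow livers against 53.1 to 99.1 CPM in Cre Chow livers, and the skeletal muscle point at 3164 CPM is Cre MCD 3.

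Hepatocyte markers fell with MCD in both genotypes, 5 of 5 each, and Ttr had a called positive interaction (0.60, SE 0.149, edgeR adjusted p = 0.016). Of the other lists, stellate cell markers had 1 called interaction of 6 (Pdgfrb, -1.01, SE 0.316, edgeR adjusted p = 0.048) and erythroid genes 2 of 5 (Hbb-bt, -1.68, and Hba-a1, -1.5). NK cell, B cell, sinusoidal endothelium, bile duct and skeletal muscle lists had no called interaction. All 10 muscle genes were called higher with MCD in Cre mice, and lower in FLCN KO than in Cre livers on MCD, with Cre MCD 3 in the comparison. Sinusoidal Stab2 was higher in FLCN KO livers on Chow (0.76, SE 0.119, edgeR adjusted p = 0.00023) and on MCD (0.62, SE 0.120, edgeR adjusted p = 0.0012). Also higher on MCD were the Kupffer cell markers Timd4 (0.94, SE 0.242) and Cd163 (0.89, SE 0.276) and the bile duct gene Sox9 (0.71, SE 0.239), with edgeR adjusted p-values of 0.010, 0.029 and 0.044. The summed Kupffer cell markers had means of 358 CPM (SD 132) in Cre MCD and 326 CPM (SD 93.7) in FLCN KO MCD livers. Of the 4 bile duct markers Sox9 alone had a positive estimate on MCD, while 3 were negative and not called, with a median of -0.61. The neutrophil receptor gene Csf3r was lower on MCD in FLCN KO livers (-0.84, SE 0.232, edgeR adjusted p = 0.015).

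Between the sexes read from the counts, with the groups in the fit, 1 of the 36 members was called, where 2.7% of all tested genes were. Cxcl14 was higher in male livers by 0.93 on the log2 scale, with an adjusted p of 0.040 from edgeR.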

How the data were processed

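Per the labels, total RNA of whole liver was made into mRNA libraries, and the submitters' processing notes name bcl2fastq, Trimmomatic, STAR, HTSeq and the build GRCm38, while their versions are not given in the sources used here. The authors deposited raw read counts per gene for 55573 rows, without normalization, and 0 columns were left unmapped. Each library comes from its own mouse, and no pair within a group was identical.

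Counts were analysed with edgeR 4.0.16 (R 4.3.3). Rows averaging 10 or more counts were kept, TMM factors were computed, and the 4 groups entered 1 quasi-likelihood fit, with two-sided tests and Benjamini-Hochberg adjustment over 14062 genes. The code of the fit was first tested on simulated data. Differences of mean log2 CPM (prior count 2) of the named members were tested by exact permutation, two-sided. Alternatives were RLE factors, no filter or filterByExpr, limma-voom (limma 3.58.1), DESeq2 1.42.0, separate fits of each pair of groups, a sex covariate, a block on the replicate number, a fit without the 5 Chow libraries that had few uniquely aligned reads, and fits without each library in turn. A further 3 were added after the libraries were seen: leaving out female libraries with Y-linked reads, female livers only and male livers only.

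RPKM were computed from exon lengths of GENCODE M21 on GRCm38. The members and lists were chosen with earlier results of these data known. Values per library are given for members called in the interaction or between genotypes, for the 5 largest called MCD responses of each genotype and for the 3 highest levels per length, and up to 3 genes of each other list are named by the largest called interaction, else by the called genotype difference on MCD, else by the called MCD response in Cre mice. Mif was added after its values were seen. The values of 1 tested member are not reported here, and it enters the counts only. The other lists are signal transduction, adhesion, other chemoattractant receptors, inducing cytokines and NF-kB, chemokines with another symbol, and the markers of each cell type named in the results. Per the study's methods the adapters carried molecular identifiers; whether reads were collapsed on them is not given in the sources used here.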

Additional observations from a re-analysis of the deposited data

Results flagged for a closer look

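The 10 called interactions are listed because the MCD response differed between genotypes by a test of the difference itself, with log2 values of -3.75 for Cx3cr1, -2.47 for Cxcl14, -2.13 for Ccl2, -2.10 for Ccl22, -2.10 for Ccl5, -2.03 for Cxcl10, -1.42 for Ccr2, -1.22 for Ccrl2, -0.94 for Ccl6 and -0.69 for Cxcl16.

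Single libraries far from the rest of their group were found in 11 of 80 gene and group combinations. The rule took the gap to the next library as a share of the group's range in CPM. Its nominal rate of about 1 in 20 is no measure of chance here. The genes share libraries, several have few counts, and they were chosen from these results. Cre Chow 5 was high for Cxcl5 (23.8 CPM) and Cxcl1 (26.6 CPM). High values were also those of Cxcl14 in FLCN KO Chow 3 (15.4 CPM), Cx3cr1 in FLCN KO Chow 4 (10.5 CPM), Ccl22 in Cre Chow 3 (0.432 CPM), Cxcr2 in FLCN KO MCD 2 (1.72 CPM), and Ccl3 in Cre Chow 4 (0.243 CPM), FLCN KO Chow 1 (0.699 CPM) and FLCN KO MCD 2 (1.25 CPM). Low values were those of Ccr1 in Cre MCD 2 (1.76 CPM) and Cxcl1 in Cre MCD 4 (13.0 CPM).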

How the results depend on the processing

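Under RLE factors, other filters, DESeq2 and sex as a covariate, the count of called members stayed within 1.5 times in all 5 comparisons. On Chow between genotypes, where 6 members were called, limma-voom called 3, of which 2 were among the 6. The count was 2 without the 5 Chow libraries with few uniquely aligned reads (1 among the 6), 2 without female libraries with Y-linked reads (both among the 6), 2 in female livers (1 among the 6) and 1 in male livers (among the 6). On MCD, the 8 became 1 without female libraries with Y-linked reads and 2 in male livers. The 10 interactions became 6 without the 5 Chow libraries, 1 without female libraries with Y-linked reads and 2 in male livers, and the 17 responses of FLCN KO mice became 10 in male livers. The rises of Ccl2, Ccl6, Ccl22, Cxcl2, Cxcr2 and Cxcr4 in FLCN KO mice were not called in female livers alone, and those of Ccl3, Ccl6, Ccr1, Cxcr2 and Cxcr4 not in male livers alone. In Cre mice the rises of Cx3cl1, Cxcl1, Cxcl14 and Cxcr2 were not called in male livers alone or without female libraries with Y-linked reads, nor those of Ackr3 and Ccr7 in female livers alone or without the 5 Chow libraries. In male livers alone the falls of Ackr4, Ccl9, Cxcl5, Cxcl11 and Cxcl12 in Cre mice and of Ackr4, Cxcl9 and Cxcl14 in FLCN KO mice were not called. Fits of 1 sex or without listed libraries hold fewer libraries, and the cause of the other changes was not tested. Leaving out 1 library gave 24 to 29 and 14 to 18 calls for MCD in Cre and FLCN KO mice, 2 to 7 and 5 to 11 between genotypes on Chow and MCD, and 7 to 14 interactions. The MCD response of Cxcl5 in Cre mice turned positive with limma-voom (0.59) and in female livers (0.25).

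With the replicate block, 3 members were called between genotypes on Chow (6.18% of all genes), 5 on MCD (13.3%) and 5 in the interaction (3.93%), and 27 and 17 for MCD in Cre and FLCN KO mice (55% and 41.9%). Of the 10 called interactions, those of Ccl6, Ccl22, Ccr2, Cxcl14 and Cxcl16 were not called with this block. Same-numbered mice are different animals, and their mean correlations after removing group means were -0.0842, -0.0112, 0.0614 and 0.129 in the first 4 comparisons, in which 0, 1, 1 and 2 of 5 livers correlated best with their own number. Members at few counts, such as Ccl3, Ccr1 and Cxcl2 on Chow, are limited by depth.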
